A study of Triticum aestivum with 16 samples.

Results

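The 3 RHT1 genes of bread wheat (Triticum aestivum) are the A, B and D copies of a single DELLA gene, carried on chromosomes 4A, 4B and 4D. They were taken by identifier: TraesCS4A02G271000 (RHT1-4A), TraesCS4B02G043100 (RHT1-4B) and TraesCS4D02G040400 (RHT1-4D). They are 3 of the 120744 identifiers in the expression tables, of which 107891 are wheat gene identifiers. All 3 passed the filter on low values in both sets of libraries.

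DELLA proteins are nuclear regulators of the GRAS family that hold back gibberellin responses, among them stem elongation. Gibberellin binds the GID1 receptor, the receptor then binds the DELLA protein, and an SCF ubiquitin ligase with an F-box protein of the GID2/SLY1 type marks the DELLA protein for breakdown. The semi-dwarfing RHT1 alleles used in Green Revolution wheats make plants short and less responsive to gibberellin. DELLA activity is set to a large extent at the protein level, which transcript values do not measure. The sources used here do not say which RHT1 alleles the sampled cultivars carry.

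The study measured mRNA by stranded RNA sequencing in 16 libraries, 2 for each of 8 groups, in seedlings grown with 16 h of light at 22 °C and 8 h of dark at 19 °C. In the cultivar AK58 the groups were axillary buds of 1.0 to 2.0 cm from 6-week seedlings that had spent 30 days at 4 °C, and leaf, root and shoot apex at 2 weeks. In the cultivar ZM7698 they were shoot apices and axillary buds at 2 weeks from M6, a line mutated in all A, B and D copies of TaSPL7 and TaSPL15 (SPL transcription factors of shoot branching), and from the wild type (WT). AK58 buds therefore differ from AK58 apices in age and cold exposure as well as in tissue, and these cannot be told apart; those sources do not say how many independent M6 lines were sampled.

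The AK58 libraries held 51497044 to 79585209 reads, and their values are normalised reads, which are reads divided by 1 factor per library and not corrected for gene length. The ZM7698 values are TPM, a length-corrected share of all transcripts, whose depth is unknown. Nothing in the labels says that the 2 replicates of a group came from separate plants, so a p-value reflects only how far these libraries spread, which may be technical. The files do not pair identifiers with gene names, so tissue labels were not checked on markers, nor M6 on its targeted genes. The AK58 root replicates stood apart: on log2 values of all tested genes they correlated at 0.770 (Pearson), where the replicates of the other AK58 groups correlated at 0.965 to 0.980. Root replicate 1 correlated with the leaf libraries at 0.758 to 0.770, and root replicate 2 at 0.519 to 0.526. Each root library is therefore given on its own, and each AK58 test between the other tissues is given with and without them.

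In AK58 the 3 copies were high in the shoot apex and the axillary bud and low in the leaf, and the root libraries lay on opposite sides of that divide. RHT1-4A stood at 1958 and 2333 normalised reads in buds, 201 and 198 in leaves, 82.3 in root replicate 1, 3101 in root replicate 2, and 4197 and 6669 in apices. The apex libraries were the highest and root replicate 1 the lowest, with no overlap between bud, leaf and apex. RHT1-4B stood at 2559 and 3345 normalised reads in buds, 385 and 375 in leaves, 83.0 in root replicate 1, 2880.4 in root replicate 2, and 3963 and 6064 in apices. RHT1-4D stood at 2693 and 3381 normalised reads in buds, 42.8 and 38.9 in leaves, 7.48 in root replicate 1, 3616 in root replicate 2, and 4979 and 5754 in apices. Bud, leaf and apex did not overlap for these copies either, and root replicate 2 lay between bud and apex for RHT1-4A and RHT1-4D and within the bud range for RHT1-4B. Groups of 2 libraries often separate: 49.7% of the 69525 tested genes had bud, leaf and apex without overlap in any order, and 15.6% in the order of the RHT1 copies, with leaf below bud and bud below apex. The smallest values rest on few reads: RHT1-4D had 39 and 42 reads in leaves and 10 in root replicate 1.

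**Figure D1:**
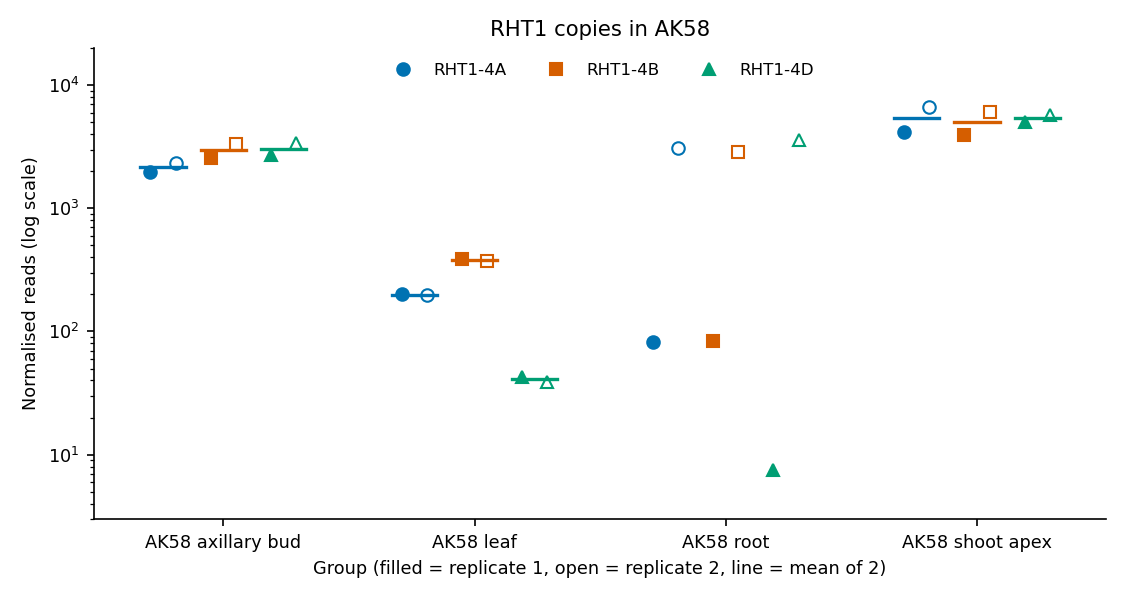
Normalised reads of RHT1-4A, RHT1-4B and RHT1-4D in each of the 8 AK58 libraries, on a log axis, with each root replicate on its own. Both leaf libraries and root replicate 1 lie far below the bud, apex and root replicate 2 libraries for every copy.

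Summed over the copies, RHT1 came to 8135 ± 1307 normalised reads in buds, 620.3 ± 12.2 in leaves and 15813 ± 3782 in apices (SD, n = 2 each). The summed level was 173 in root replicate 1 and 9597 in root replicate 2. The order was thus apex, then root replicate 2 and bud, then leaf, then root replicate 1, and root replicate 2 stood only 1.65-fold below the apex mean. In bulk tissue a lower level cannot be told apart from fewer cells that carry the transcript.

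The first comparison asked how RHT1 differs between leaf and shoot apex, the tissue that holds the meristem. The leaf mean was 199 ± 1.99 normalised reads for RHT1-4A, against 5433 ± 1748 in the apex, which is 27.2-fold lower. For RHT1-4B it was 380.0 ± 7.39 in the leaf and 5013 ± 1486 in the apex, 13.2-fold lower. For RHT1-4D it was 40.8 ± 2.78 in the leaf and 5367 ± 548 in the apex, 131-fold lower (SD, n = 2 each). The copies thus shared a direction but not a size, and the D copy had the widest gap.

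A copy was called where limma gave a Benjamini-Hochberg adjusted p under 0.05 and a log2 fold change of at least 1 in size. In the fit over all 8 AK58 libraries, RHT1-4A was called lower in the leaf, with a log2 fold change of -4.72 and a standard error (SE) of 1.50 (adjusted p = 0.0463 in limma). RHT1-4B, at -3.69 ± 1.47 (limma adjusted p = 0.0871), and RHT1-4D, at -7.00 ± 2.49 (limma adjusted p = 0.0635), were not called. That is 1 of 3 copies lower, where 20.1% of the 69525 tested genes were called lower. The spread in this fit includes the gap between the root libraries. Without both root libraries the SE fell to 0.26, 0.26 and 0.21, and all 3 copies were called lower (limma adjusted p = 2.10e-05, 3.88e-05 and 1.55e-05), where 32.4% of 64722 tested genes were called lower. The RHT1-4A call of the 8-library fit was lost without any 1 of the 6 other libraries (limma adjusted p up to 0.187, without apex replicate 2).

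Buds held less RHT1 than apices and more than leaves. Against the apex, the bud means of 2146 ± 266 for RHT1-4A, 2952 ± 555 for RHT1-4B and 3037 ± 486 for RHT1-4D were lower 2.53-fold, 1.70-fold and 1.77-fold (SD, n = 2). No bud library reached the lowest apex library for any copy, which also held for 39.5% of tested genes. With all 8 libraries limma called 0 of 3 copies (log2 fold changes of -1.31 ± 1.50, -0.74 ± 1.47 and -0.83 ± 2.49, adjusted p = 0.608, 0.785 and 0.874), with 0 at an unadjusted p under 0.05. In limma 17.8% of tested genes were called in either direction. edgeR called 0 copies, beside 5550 genes higher in the bud and 3082 lower. DESeq2 called 0 copies, beside 8628 genes higher and 7350 lower. Without both root libraries, RHT1-4A fell (limma adjusted p = 0.00688), while RHT1-4B missed the p threshold (limma adjusted p = 0.0568) and RHT1-4D, at adjusted p = 0.0184 in limma, missed the fold minimum. That is 1 of 3 copies lower, beside 18.7% of tested genes called lower in that fit.

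Against the leaf, the buds stood 10.8-fold higher for RHT1-4A, 7.77-fold for RHT1-4B and 74.4-fold for RHT1-4D. With all 8 libraries limma called 0 of 3 copies (log2 fold changes of 3.42, 2.94 and 6.17, adjusted p = 0.135, 0.177 and 0.110), beside 26.1% of tested genes called in either direction. In limma 1 copy had an unadjusted p under 0.05, a cut at which the share of all tested genes was not counted. edgeR called 0 copies, beside 5148 genes higher in the bud and 7424 lower, and DESeq2 called 3 copies. DESeq2 called 11838 of the 69525 tested genes higher in the bud and 11821 lower. Without both root libraries all 3 copies were called higher in the bud (limma adjusted p = 0.000131, 0.000202 and 6.53e-05), where 27.4% of tested genes were called higher.

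**Figure D2:**
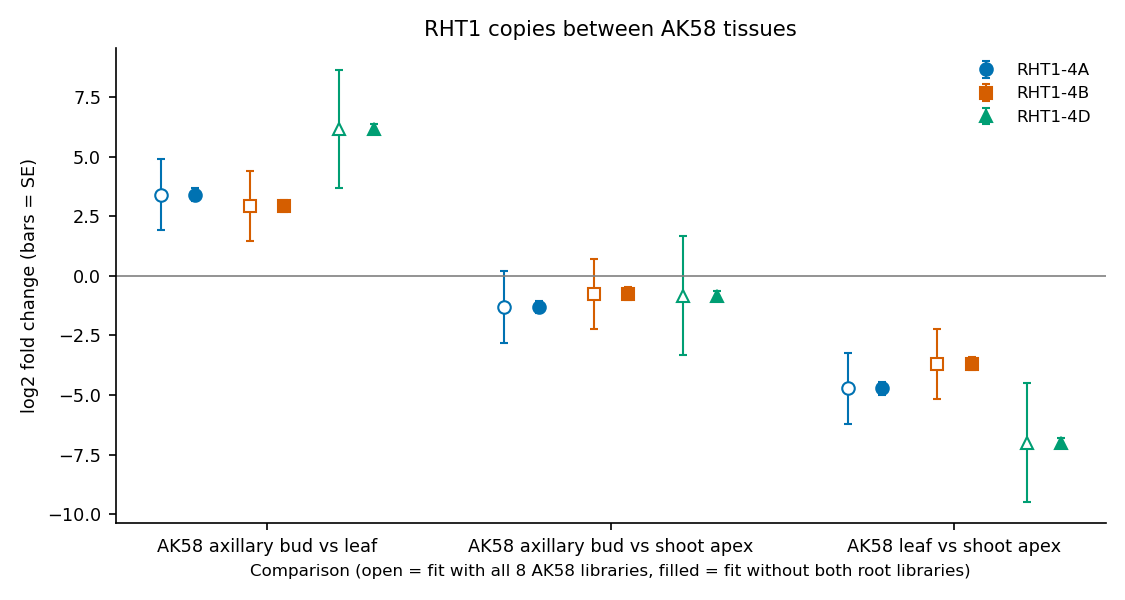
log2 fold changes of the 3 RHT1 copies for AK58 bud over leaf, bud over apex and leaf over apex, from limma with all 8 libraries (open) and without both root libraries (filled), with bars showing the SE. The estimates are the same in both fits, and the bars are shorter without the root libraries.

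Over leaf, bud and apex, the group means spanned a log2 range of 4.72 for RHT1-4A, 3.69 for RHT1-4B and 7.00 for RHT1-4D, where the median tested gene spanned 1.95. A range at least as wide was found in 15.3% of tested genes for RHT1-4A, 25.2% for RHT1-4B and 4.06% for RHT1-4D.

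The roots need their libraries apart. Root replicate 1 was lower than root replicate 2 by 37.7-fold for RHT1-4A, 34.7-fold for RHT1-4B and 483-fold for RHT1-4D, and by 55.5-fold for the sum. An absolute log2 ratio at least as large as that of RHT1-4A was found in 6.64% of tested genes, as that of RHT1-4B in 7.21% and as that of RHT1-4D in 0.188%. Of all tested genes, 25.6% were at least 4-fold lower in root replicate 1 and 1.48% at least 4-fold higher. A library against a library has no replicate check, and which of them stands for AK58 root was not tested.

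**Figure D3:**
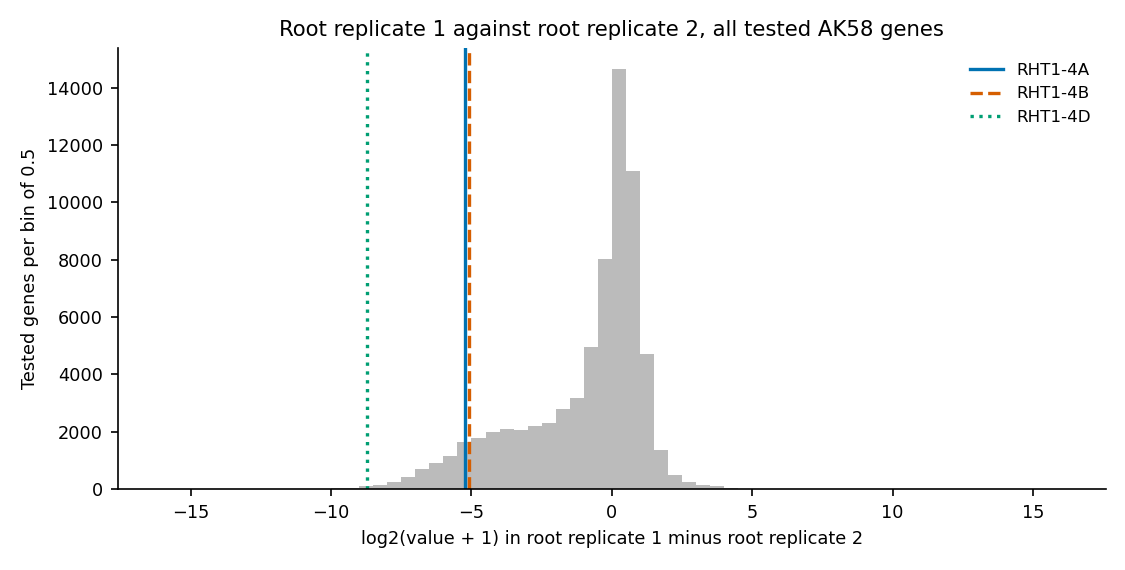
Distribution over all tested genes of the log2 ratio of AK58 root replicate 1 over root replicate 2, with the 3 RHT1 copies marked. All 3 copies lie in the left tail, and RHT1-4D lies farthest out.

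With both root libraries in the fit, 0 of 3 copies were called between root and apex (limma log2 fold changes of -3.38, -3.32 and -4.93, adjusted p = 0.129, 0.128 and 0.171), beside 34.2% of tested genes. Between bud and root the fit also called 0 of 3 (limma log2 fold changes of 2.07, 2.57 and 4.11, adjusted p = 0.325, 0.220 and 0.245), beside 34.1%. In both comparisons 0 copies had an unadjusted p under 0.05, and edgeR and DESeq2 called 0. Of the 69525 tested genes, edgeR called 13082 higher in root than apex and 7284 lower, and DESeq2 16141 and 9848. For bud against root edgeR called 8145 genes higher in the bud and 12046 lower, and DESeq2 9862 and 15936. Between leaf and root the limma fit called 0 of 3 copies as well, beside 23.5%. The limma log2 fold changes were -1.34, -0.37 and -2.07 (adjusted p = 0.539, 0.877 and 0.568), with 0 at an unadjusted p under 0.05. For leaf and root edgeR called 0 copies, beside 6759 genes higher in the leaf and 6219 lower. DESeq2 called 2 copies. DESeq2 called 9139 of the 69525 tested genes higher in the leaf than in the root and 15002 lower.

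A single root library has no spread of its own, and the root libraries lay far apart, so only effect sizes are given for each. With root replicate 1 as the sole root library, all 3 copies were lower than in the apex (limma log2 fold changes of -5.99, -5.87 and -9.30). Changes at least as large in size were found in 7.40%, 7.81% and 0.931% of tested genes. Buds were higher than this library for all 3 (4.68, 5.12 and 8.48, limma adjusted p = 6.52e-05, 4.74e-05 and 6.19e-06), beside 29.1% of tested genes called higher. Leaves were higher too (1.27, 2.18 and 2.30, limma adjusted p = 0.0251, 0.00289 and 0.00142), beside 16.8% called higher.

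With root replicate 2 as the sole root library, 0 of 3 copies were called against the apex (limma log2 fold changes of -0.77, -0.77 and -0.57, adjusted p = 0.0861, 0.0904 and 0.110), where 44.2% of tested genes were called. Buds and this library did not differ by the test either (-0.54, 0.023 and -0.26, limma adjusted p = 0.203, 0.967 and 0.431), beside 45.2% called. Leaves were lower than it for all 3 copies (-3.95, -2.92 and -6.44, limma adjusted p = 0.000178, 0.000473 and 3.93e-05), beside 29.6% called lower. The leaf thus stood above root replicate 1 and below root replicate 2 for every copy.

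The shares of the copies were then set side by side. Shares in AK58 rest on reads not corrected for length, so the balance between tissues can be compared while the share itself may carry a length difference between the copies, and reads that match several copies may have been divided among them by the authors' quantification. RHT1-4D made up 37.4% and 37.3% of summed RHT1 in buds, 6.81% and 6.35% in leaves, 4.33% in root replicate 1, 37.7% in root replicate 2, and 37.9% and 31.1% in apices. Its Wilson 95% interval was 5.02% to 9.17% and 4.73% to 8.48% in the leaf libraries, 2.37% to 7.78% in root replicate 1, and 36.7% to 38.6% in root replicate 2. The D share was thus low in the same 3 libraries where summed RHT1 was low. Their intervals lay apart from those of the other 5, but these intervals cover counting error only and not the spread between libraries. The intervals of the apex replicates also lay apart from each other, at 37.1% to 38.7% and 30.5% to 31.7%.

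RHT1-4A made up 27.2% and 25.8% of the sum in buds, 31.9% and 32.4% in leaves, 47.6% in root replicate 1, 32.3% in root replicate 2, and 31.9% and 36.1% in apices. RHT1-4B made up 35.5% and 36.9% in buds, 61.3% and 61.3% in leaves, 48.1% in root replicate 1, 30.0% in root replicate 2, and 30.2% and 32.8% in apices. The B copy thus led in the leaf, and the A and B copies were near each other in root replicate 1.

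The ratio of RHT1-4D to RHT1-4A, which a fixed length difference cannot change between tissues, was 1.38 and 1.45 in buds, 0.213 and 0.196 in leaves, 0.0909 in root replicate 1, 1.17 in root replicate 2, and 1.19 and 0.863 in apices. The highest copy exceeded the lowest 1.16-fold to 1.45-fold in the 5 bud, apex and root replicate 2 libraries, against 9.0-fold and 9.64-fold in the leaves and 11.1-fold in root replicate 1. Shares carry no test in AK58, where no exact test between a single pair of groups, each of 2 libraries, could pass the threshold.

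**Figure D4:**
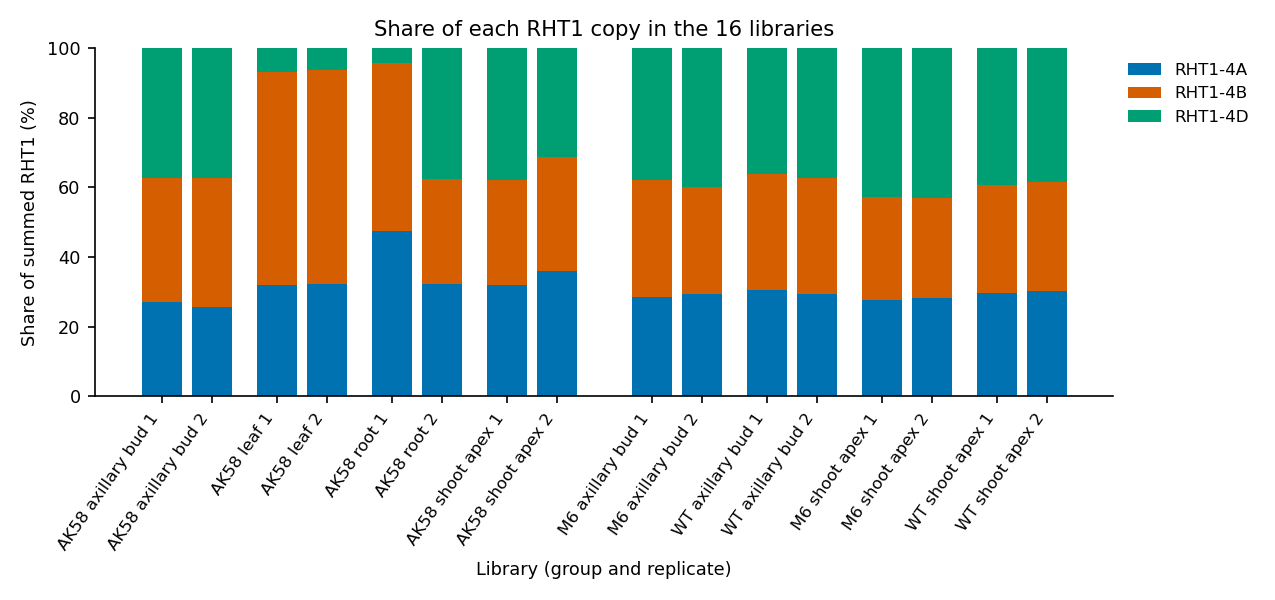
Share of RHT1-4A, RHT1-4B and RHT1-4D in summed RHT1 in each of the 16 libraries, in percent, from normalised reads in AK58 and from TPM in ZM7698. The D share is below 10% in both leaf libraries and in root replicate 1, and between 31.1% and 43.1% in all others.

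In ZM7698, where TPM allows levels to be set beside other genes, the copies ranked high: 1.31% to 2.79% of detected identifiers stood at or above a copy, over the 3 copies and 8 libraries. The comparison of M6 with WT asked how RHT1 differs where both SPL genes are mutated. In both tissues every M6 library stood above every WT library for all 3 copies, yet no copy passed the test across genes.

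In buds, RHT1-4A stood at 128 and 105 TPM in M6, against 76.5 and 87.8 TPM in WT. RHT1-4B stood at 151 and 111 TPM in M6 buds, against 82.9 and 99.4 TPM in WT buds. RHT1-4D stood at 170.2 and 142 TPM in M6 buds, against 90.1 and 112 TPM in WT buds. M6 replicate 1 was the highest bud library for each copy, and the groups did not overlap. The means were higher in M6 buds by 42.0% for RHT1-4A (117 ± 16.7 against 82.2 ± 7.97 TPM), 43.7% for RHT1-4B (131 ± 28.9 against 91.1 ± 11.7 TPM) and 54.7% for RHT1-4D (156 ± 19.8 against 101 ± 15.4 TPM; SD, n = 2 each).

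In apices, RHT1-4A stood at 111 and 105 TPM in M6, against 94.7 and 99.9 TPM in WT. RHT1-4B stood at 118 and 107 TPM in M6 apices, against 99.1 and 103 TPM in WT apices. RHT1-4D stood at 172 and 160.4 TPM in M6 apices, against 125 and 127 TPM in WT apices. The groups again did not overlap, with a gap that was narrow for RHT1-4A and RHT1-4B and wide for RHT1-4D. The means were higher in M6 apices by 11.3% for RHT1-4A (108 ± 4.37 against 97.3 ± 3.66 TPM), 11.2% for RHT1-4B (113 ± 8.34 against 101 ± 2.89 TPM) and 31.4% for RHT1-4D (166 ± 7.99 against 126 ± 1.3 TPM; SD, n = 2 each).

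All 3 copies lay above WT without overlap in the apex, as did 17.4% of tested genes, in the bud, as did 16.5%, and in both tissues at once, as did 3.86% of the 50878 tested genes. In limma 0 of 3 copies were called in the bud (log2 fold changes of 0.50 ± 0.13, 0.51 ± 0.17 and 0.63 ± 0.14, SE; adjusted p = 0.244, 0.353 and 0.195), where 0.147% of tested genes were called, and 3 copies had an unadjusted p under 0.05. In the apex limma called 0 of 3 (0.15 ± 0.13, 0.15 ± 0.17 and 0.39 ± 0.14; adjusted p = 0.931, 0.948 and 0.710), beside 0.134%, and 1 copy had an unadjusted p under 0.05. Over both tissues limma called 0 of 3 (0.32 ± 0.094, 0.33 ± 0.12 and 0.51 ± 0.10, adjusted p = 0.347, 0.493 and 0.156), beside 0.332%, and 3 had an unadjusted p under 0.05. The share of all tested genes at that unadjusted cut was not counted, so the called shares are no measure for those counts. With a library left out, the bud difference ranged from 0.35 to 0.64 for RHT1-4A, 0.28 to 0.73 for RHT1-4B and 0.47 to 0.78 for RHT1-4D on the log2 scale, with limma adjusted p from 0.0361 to 0.857, 0.0389 to 0.983 and 0.0396 to 0.751. RHT1-4B was at 0.28 without M6 bud replicate 1. The lowest p-values came without M6 bud replicate 2, where M6 buds are the single higher library, whose spread is assumed to be that of the other groups, and the fold minimum was still missed. The highest came without WT bud replicate 1. The TPM tables allow no count test, so edgeR and DESeq2 were not run on them.

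**Figure D5:**
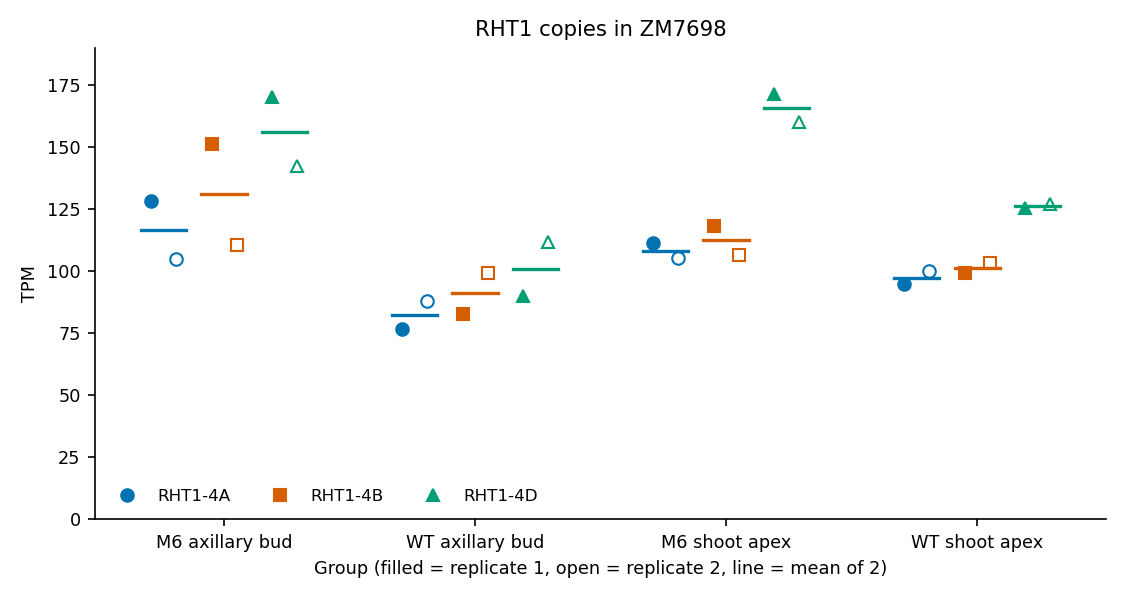
TPM of the 3 RHT1 copies in each of the 8 ZM7698 libraries, with group means, by tissue and genotype. Every M6 point lies above every WT point of the same tissue for each copy, and the D copy is the highest in each library.

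Summed over the copies, RHT1 came to 450.1 and 358 TPM in M6 buds and 401 and 372 TPM in M6 apices, against 249.6 and 299 TPM in WT buds and 319 and 330.4 TPM in WT apices. The mean over both tissues was 395 ± 40.8 TPM in M6 and 299.6 ± 35.8 TPM in WT (SD, n = 4 each), a difference of 95.8 TPM or 32.0%. An exact permutation of the genotype labels within tissue, two-sided over 36 arrangements, gave p = 0.0556, the smallest it allows, and 0.0648 adjusted over the 7 quantities tested. The design therefore could not pass 0.05 in this test.

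The D copy was the highest of the 3 in all 8 ZM7698 libraries, 1.18-fold to 1.54-fold above the lowest. Its share was 37.8% and 39.8% in M6 buds, against 36.1% and 37.4% in WT buds, and 42.8% and 43.1% in M6 apices, against 39.3% and 38.5% in WT apices. The M6 libraries lay above the WT libraries of the same tissue. How often the copy shares of other genes separate in this way was not counted. Over both tissues the D share was 3.03 percentage points higher in M6 and the A share 1.52 points lower (a difference of -1.52), each with p = 0.0556 in the exact permutation test, the smallest it allows. The B share differed by -1.51 points (exact permutation p = 0.167).

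Between tissues of ZM7698 the levels were close. In M6, bud and apex overlapped for every copy, and limma called 0 of 3 (log2 fold changes of 0.10, 0.20 and -0.092, adjusted p = 0.753, 0.635 and 0.792), beside 0.0884% of tested genes. In WT, bud and apex did not overlap for RHT1-4A and RHT1-4D, where the bud was lower, and overlapped for RHT1-4B; 32.3% of tested genes had both WT bud libraries below both WT apex libraries. In WT limma called 0 of 3 (-0.24, -0.16 and -0.33, adjusted p = 0.439, 0.766 and 0.313), beside 2.5%. Over both genotypes it called 0 of 3 (-0.072, 0.023 and -0.21, limma adjusted p = 0.711, 0.936 and 0.306), beside 2.16%. The M6 difference itself was not called as larger in bud than in apex for any copy (0.34, 0.36 and 0.24, limma adjusted p = 0.756, 0.790 and 0.806), where 0% of tested genes were called. None of these 4 comparisons had a copy with an unadjusted p under 0.05 in limma.

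The summed level differed by -16.7 TPM between bud and apex (exact permutation of tissue labels within genotype, p = 0.611). The D share was lower in the bud (a difference of -3.13 points) and the B share higher by 2.63 points, each with an exact permutation p = 0.0556, the smallest it allows, and 0.194 adjusted over the 7 quantities. Over the 4 ZM7698 groups the means spanned a log2 range of 0.50, 0.51 and 0.72, where the median tested gene spanned 0.33, and 31.4%, 30.6% and 19.3% of tested genes spanned at least as much.

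The copies followed one another across libraries. On log2 values over the 8 AK58 libraries the Pearson correlation was 0.985 between RHT1-4A and RHT1-4B, 0.990 between RHT1-4A and RHT1-4D, and 0.987 between RHT1-4B and RHT1-4D. Over the 8 ZM7698 libraries these were 0.960, 0.946 and 0.851. The AK58 values mostly measure the split between high and low libraries, so they are descriptions only, as are those of other genes. For RHT1-4A, 4.05% of the 53567 other identifiers with a mean of at least 50 normalised reads reached 0.95 in AK58. In ZM7698 0.101% of the 23871 with at least 5 TPM did. For RHT1-4B and RHT1-4D these shares were 2.07% and 3.61% in AK58, and 0.197% and 0.0377% in ZM7698. Many identifiers were thus more like a copy than the other copies were. By likeness, the other copies held ranks 83 to 255 of 53569 in AK58 and 13 to 713 of 23873 in ZM7698. Over the 6 AK58 libraries other than root the ranks were 186 to 2125 of 49723. There 12.4%, 12.3% and 11.5% of other identifiers reached 0.95 for RHT1-4A, RHT1-4B and RHT1-4D.

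The identifier most like each copy over the 8 AK58 libraries was TraesCS6D02G314300 for RHT1-4A (r = 0.9993), TraesCS3D02G355200 for RHT1-4B (r = 0.998) and TraesCS6B02G413400 for RHT1-4D (r = 0.9994). TraesCS6D02G314300 averaged 1183 ± 237 normalised reads in buds, 107 ± 6.35 in leaves and 3203 ± 1111 in apices (SD, n = 2 each), the same order as RHT1-4A. It was chosen by its correlation over these same libraries, so the shared order is not a separate result. Over the 6 libraries other than root they were TraesCS3B02G178800, TraesCS2B02G528500 and TraesCS5A02G062400, all of which had 0 reads in both leaf libraries. In ZM7698 the likest was TraesCS1D02G349700 for RHT1-4A (r = 0.989) and RHT1-4D (r = 0.970), and TraesCS4D02G210500 for RHT1-4B (r = 0.987). The files give no names for these identifiers.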

How the data were processed

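Trimmomatic, HISAT2 2.0.5 and StringTie 1.3.3b are the tools listed for read processing, per the submitters' processing notes; the genome build, the annotation and the program that counted AK58 reads are not given in the sources used here. The ZM7698 values were deposited as TPM. The AK58 values were deposited under the same name but are a signal, whole reads divided by 1 factor per library: 100% of values came out whole within 0.001 reads. The design assumed that either unit was possible and kept the same test.

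Tested genes had at least 10 normalised reads, or 1 TPM, in at least 2 libraries. limma 3.58.1 (R 4.3.3, intensity trend) was fitted to log2(value + 1) over all tested genes of each cultivar, 4 groups sharing 1 spread, with Benjamini-Hochberg adjustment over all of them; fold changes from limma are on that scale and those of means are not. edgeR 4.0.16 and DESeq2 1.42.0 were run on the recovered AK58 reads as alternatives; between leaf and apex edgeR called 12827 genes higher and 11496 lower, and limma 14098 and 13968. Other alternatives changed the added value, filter, scaling, trend, samples fitted and replicate block, or left out libraries; edgeR without both root libraries was chosen after seeing the data. Wilson 95% intervals cover counting error only. Exact permutation tests were two-sided.

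The 3 genes, the tests and the rule for other named genes (the tested identifier with the highest Pearson correlation to each copy, among those with a mean of at least 50 normalised reads or 5 TPM) were chosen with earlier results of these data known. The reference gene table matched 0 identifiers, so gene names rest on published identifiers, and coordinates, sequences and other gibberellin pathway genes are not used here. Python 3.11.15 computed the descriptions.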

Additional observations from a re-analysis of the deposited data

Results flagged for a closer look

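The share of RHT1-4A moved in opposite directions between bud and apex in AK58 and in M6. In AK58 it was 27.2% and 25.8% in buds, against 31.9% and 36.1% in apices, a difference of means of -7.55 percentage points. In M6 it was 28.5% and 29.3% in buds, against 27.7% and 28.3% in apices, a difference of 0.93 points. In WT, of the same cultivar as M6, it was 30.7% and 29.4% in buds, against 29.7% and 30.2% in apices, which overlap, with a difference of 0.067 points. Every AK58 bud library lay below every AK58 apex library, and every M6 bud library above every M6 apex library. Groups of 2 libraries often separate in this way, and how often the copy shares of other genes do so was not counted. Over both ZM7698 genotypes the RHT1-4A share differed by 0.50 points between bud and apex (exact permutation p = 0.333, and 0.583 adjusted over 7 quantities). The difference between the AK58 and M6 contrasts was not tested, and the tables of the cultivars have different units. AK58 buds also differ in age and cold exposure, which cannot be told apart from cultivar and genotype here.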

How the results depend on the processing

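The number of RHT1 copies called in AK58 depended on the fit. Between bud and apex (0 in the report) it was 1 with the contrasted groups alone, without both root libraries in limma, and in edgeR without them, and 0 to 1 with a library left out. Between leaf and apex (1 in the report) it was 0 with 0.1 added before the logarithm, with no filter and with no intensity trend, 2 with quantile normalisation, 3 with median centring, the contrasted groups alone, both root libraries left out (limma or edgeR) or DESeq2, and 0 to 3 with a library left out. Between root and apex it was 2 with median centring. Between bud and leaf it was 3 with the contrasted groups alone, both root libraries left out (limma or edgeR) or DESeq2, and 0 to 3 with a library left out. Between leaf and root it was 2 in DESeq2. For comparisons with root, counts from fits with a single root library are not given, since such a library has no spread of its own. The cause was not tested beyond the width of the spread given in the report. The number of all tested genes called changed with the fit too. Called lower in leaf than apex were 13968 of 69525 genes in the report, 11086 with median centring, 11980 with quantile normalisation and 16073 in DESeq2. With the contrasted groups alone it was 19970 of 62783, and without both root libraries 21002 of 64722 in limma. Called higher in bud than leaf were 7766 of 69525 in the report, 11838 in DESeq2 and 16783 of 60901 with the contrasted groups alone. Between bud and apex the contrasted groups alone gave 11068 genes higher in the bud and 12887 lower, of 61506. Without both root libraries limma gave 11347 higher and 12107 lower, and edgeR 12052 and 11619, of 64722. Between root and apex median centring gave 11968 higher in the root and 9688 lower, of 69525.

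Leaving out libraries moved the bud over root log2 fold change between -0.54 and 4.68 (RHT1-4A) and -0.26 and 8.48 (RHT1-4D), and leaf over root between -3.95 and 1.27 (RHT1-4A), -2.92 and 2.18 (RHT1-4B) and -6.44 and 2.30 (RHT1-4D). Median centring, which moved the median leaf over apex log2 fold change of all genes from -0.14 to 0.35 and the median root replicate 1 over replicate 2 log2 ratio from -0.10 to 0.90, gave 0.18 for RHT1-4B leaf over root, a summed leaf level of 794, and root replicate log2 ratios of -4.22, -4.10 and -7.73 for the 3 copies, against -5.22, -5.10 and -8.74 in the report. Quantile normalisation gave -4.65 and -4.54 for RHT1-4A and RHT1-4B.

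In ZM7698 no copy was called under any alternative run. Leaving out libraries moved the M6 bud over apex log2 fold change between -0.045 and 0.25 (RHT1-4A), -0.024 and 0.43 (RHT1-4B) and -0.22 and 0.037 (RHT1-4D), and that over both genotypes between -0.14 and 0.0011 (RHT1-4A; 0.0011 without M6 bud replicate 2) and -0.089 and 0.14 (RHT1-4B; -0.042 without WT bud replicate 2, -0.014 without M6 apex replicate 2). The summed tissue difference ranged from -39.8 to 6.42 TPM, 6.42 being without M6 bud replicate 2, and the summed genotype difference from 72.6 to 119 TPM.

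Replicate differences were not shared by all groups. Their correlations between groups were -0.12 to 0.43 in AK58, with 0.43 between root and shoot apex, and -0.31 to 0.16 in ZM7698. A replicate block left the count of copies called at 1 between leaf and apex (RHT1-4A, limma adjusted p = 0.0364) and at 0 elsewhere. Depth limits RHT1-4D in leaf and root replicate 1, and is unknown in ZM7698.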

Other observations

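The neighbours of each RHT1 copy were the genes next to it by identifier order, 10 on either side where tested. At least 4-fold lower values in root replicate 1 than in root replicate 2 were found for 4 of 19 tested neighbours of RHT1-4A, 4 of 19 of RHT1-4B and 5 of 17 of RHT1-4D, beside 25.6% of all tested genes. None of these neighbours was at least 4-fold higher there, against 1.48% of all tested genes. Leaf means at least 4-fold below the apex were found for 6, 4 and 6 of the same neighbours, beside 22.5% of all tested genes. Identifier order stands in for position, since no coordinates were used.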
